A study of Mus musculus with 6 samples.

Results

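The 10 genes described here encode liver X receptor alpha, genes that the liver X receptors (LXRs) are known to control, and neighbouring steps of cholesterol export: Apoe, Abca1, Abcg1, Abca9, Nr1h3, Pltp, Mylip, Lpcat3, Lpl and Ch25h. They were taken by name from the non-control probes of the arrays, which carry 20 probes for them, and all 10 were among the 19499 genes tested. C57BL/6J mice aged 6 to 8 weeks gave the bone marrow from which monocytes were isolated with magnetic beads, and these were cultured for 60 h. The 3 control cultures received 20 ng/mL M-CSF, under which monocytes turn into macrophages, and the 3 IFN-beta cultures received the same M-CSF together with 100 U of mouse IFN-beta, one of the type I interferons. Each culture had its own 1-colour Agilent array, which measures RNA levels. The labels do not say whether the replicates came from separate mice or preparations, so p-values measure the spread between these 6 samples, which may be technical.

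LXRs are nuclear receptors that sense oxysterols, the oxidised forms of cholesterol, and bind DNA together with a retinoid X receptor. In macrophages they are known for switching on genes that move cholesterol out of the cell: the membrane pumps ABCA1 and ABCG1, the acceptor protein apolipoprotein E, and proteins that remodel lipoproteins and membranes. A macrophage that takes up cell debris or modified lipoprotein depends on this route, since it cannot break down the sterol ring.

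The sequences just upstream of the start sites are shown for Apoe, Abca1 and Abca9, the members with the lowest p-values against all controls. They come from RefSeq (GRCm38.p6), which gave 11 windows of 250 bases for 8 of the 10 genes, and they run 5′ to 3′ on the strand of the gene. All 3 genes lie on the minus strand, Apoe (window 3 of its 3) at chr7:19699189-19699438, Abca1 at chr4:53159896-53160145 and Abca9 at chr11:110168154-110168403. Capitals mark the stretch that comes nearest to the LXR response element.
Apoe: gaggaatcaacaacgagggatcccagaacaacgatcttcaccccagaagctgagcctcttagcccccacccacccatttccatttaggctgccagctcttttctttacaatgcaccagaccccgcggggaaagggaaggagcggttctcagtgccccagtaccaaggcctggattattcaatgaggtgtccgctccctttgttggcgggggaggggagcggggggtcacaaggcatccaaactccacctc
Abca1: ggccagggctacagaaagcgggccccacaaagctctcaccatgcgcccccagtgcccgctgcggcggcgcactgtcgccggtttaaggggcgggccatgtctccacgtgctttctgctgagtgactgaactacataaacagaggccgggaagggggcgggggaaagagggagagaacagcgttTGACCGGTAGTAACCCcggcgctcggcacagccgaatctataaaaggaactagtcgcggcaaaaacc
Abca9: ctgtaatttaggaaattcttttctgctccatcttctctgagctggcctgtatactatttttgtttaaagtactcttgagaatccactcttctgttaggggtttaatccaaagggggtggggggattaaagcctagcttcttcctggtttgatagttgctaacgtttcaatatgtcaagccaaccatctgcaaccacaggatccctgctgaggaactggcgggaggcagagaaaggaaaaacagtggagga
The LXR element was searched on both strands as AGGTCA, then 4 free bases, then AGGTCA again. With up to 2 mismatches among its 12 fixed letters it was found in 0 of the 11 windows and in 2.57% of the 32851 windows of all genes. With up to 3 mismatches it was found in the Abca1 window alone among the 11, and in 18.5% of all windows. Matches this loose are thus common, and the count does not tell whether the Abca1 stretch works as an LXR element. The Abca1 stretch begins 67 and ends 52 bases before the start and reads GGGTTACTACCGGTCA on the other strand. The core of the interferon-stimulated response element, TTTC, then 2 free bases, then TTTC, was in 0 of the 11 windows and in 2.98% of all windows. These are counts of letters in short windows and say nothing of binding here or farther away.

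All levels below are log2 signals relative to the 75th percentile of the array, so a level of 0 sits at that percentile, and levels are compared between arrays and not between genes. The interferon response was present as labelled: the summed level of 5 interferon-induced genes (Isg15, Ifit1, Mx1, Irf7 and Oasl2) was 27.6 to 51.5 times the percentile signal on control arrays and 504 to 644 times on IFN-beta arrays. The cells carried monocyte and macrophage markers, with all 8 listed genes (among them Csf1r, Itgam and Adgre1) well above background on every array and a summed level of 625 to 935 on control and 838 to 841 on IFN-beta arrays. Control 3 stood apart from controls 1 and 2. Over the 17518 genes well above background on every array, its differences from them had a robust SD of 0.331 and 0.351. That SD was 0.11 between controls 1 and 2 and 0.241 to 0.308 between IFN-beta arrays. The summed level of 12 fibroblast and marrow stroma markers was 385 and 448 on controls 1 and 2, 2.93 on control 3 and 3.04 to 5.34 on IFN-beta arrays. All 12 were well above background on controls 1 and 2 and 4 of them on control 3, where Col3a1, Dcn, Lum, Pdgfra, Pdgfrb, Cxcl12, Postn and Loxl1 were not. The 6 adipocyte markers had summed levels of 63.7, 60.1 and 19.8 on controls 1 to 3 and 9.72 to 14.2 with IFN-beta. Erythroid and megakaryocyte markers split the same way, with sums of 191, 176 and 49.8 on controls 1 to 3 and 22.9 to 29.6 with IFN-beta (Hba-a1 at 7.06, 6.95 and -0.89 on controls). Of the 6 endothelial markers, Emcn, Tek and Tie1 were well above background on controls 1 and 2 only. The endothelial sum was 8.11, 6.43 and 3.98 on controls 1 to 3 and 10.8 to 11.4 with IFN-beta. Kdr went the other way, at 1.3, 1.2 and 1.89 on controls 1 to 3 and 3.35 to 3.45 with IFN-beta. Of the adipocyte and erythroid lists, Lep (-1.22, -1.2 and -0.93), Pf4 (4.94, 4.88 and 5.62) and Klf1 were also highest on control 3 among the controls. The part of these cells in the levels of the members was not tested. Every member is therefore given against all 3 controls, against control 3 alone, and against controls 1 and 2. These comparisons share the 3 IFN-beta arrays and do not support one another. Control 3 is 1 array, so standard errors and p-values against it take their spread from the IFN-beta arrays alone. They assume that control 3 varies like those arrays. Abca1, Pltp and Ch25h varied more among the 3 controls (SD 1.19, 2.36 and 0.89) than with IFN-beta (0.11, 0.18 and 0.26). Abca9 and Mylip went the other way (0.16 and 0.06 against 0.96 and 0.16). In a bulk sample, fewer cells of a type and less RNA per cell cannot be told apart.

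Against all 3 controls, 4 of the 10 genes were lower with IFN-beta (Apoe, Abca1, Abca9 and Mylip) and 0 were higher (limma, adjusted p under 0.05 over all genes). Over all genes tested, 19.8% passed in either direction, 11.8% higher and 8.04% lower. Against control 3 alone, 4 were again lower, with Lpcat3 in place of Mylip, where 9.56% of all genes passed, 5.22% higher and 4.34% lower. Against controls 1 and 2, 7 were lower and 1, Abcg1, was higher, where 48.2% of all genes passed, 15.1% lower and 33.1% higher. The median log2 fold change of the 10 genes was -0.75 against all controls, -0.58 against control 3 and -0.99 against controls 1 and 2, beside 0.10, -0.10 and 0.22 over all genes. In 6 genes every IFN-beta array lay below every control array, and in 1 gene every one lay above. Of all genes, 16.8% and 23.4% had such separated groups, 40.2% together. Control 3 was below both other controls in 4 members and above both in 5, where 19.8% and 73.9% of all genes were. At an unadjusted p under 0.05 (limma), 7 of the 10 passed against all controls. This threshold was loose, since Abcg1, the weakest of the 7, ranked only 6065 among the 19499 genes. All genes ranked above Abcg1 passed it as well. The share of all genes that passed is not given here, so no result is drawn from this count.

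**Figure D1:**
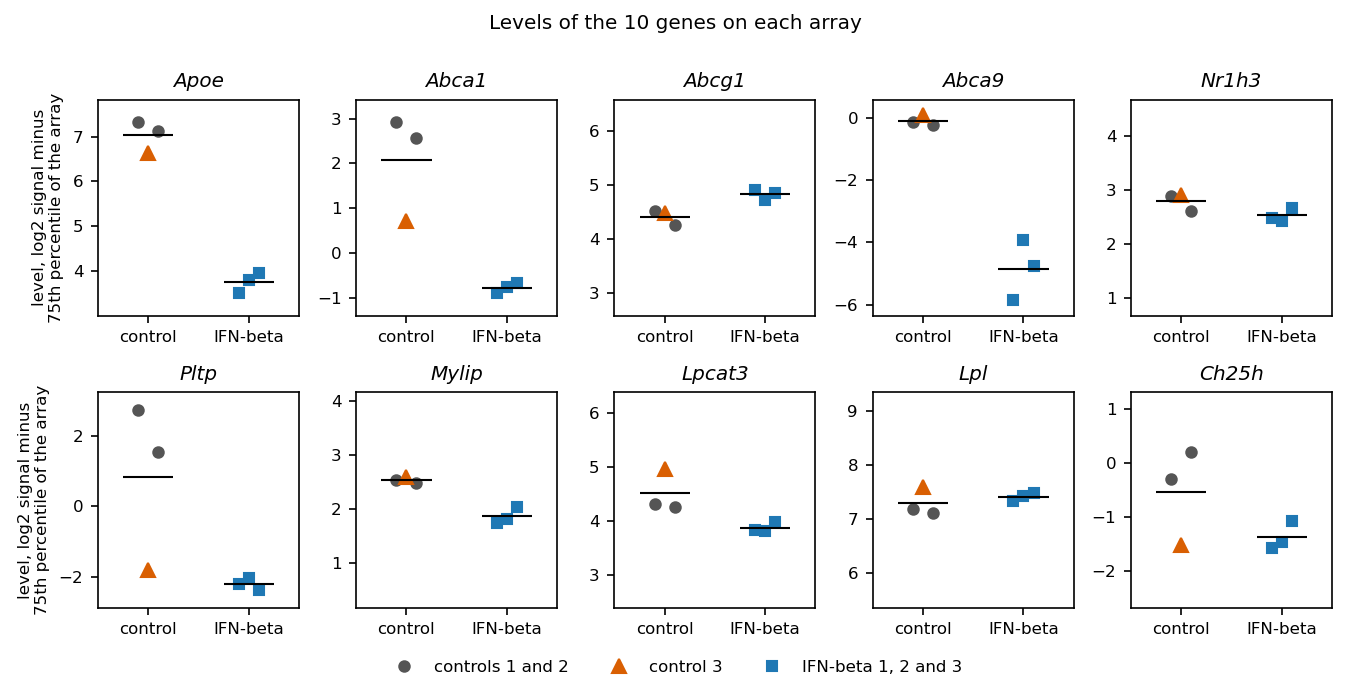
Level of each gene (vertical axis, log2 signal minus the 75th percentile of the array) on the 3 control and 3 IFN-beta arrays, with control 3 as a triangle and the group means as lines. Axes span at least 4 log2 units and differ in position. Apoe and Abca9 show separated groups with control 3 beside the other controls, while the control 3 points of Pltp and Ch25h sit with the IFN-beta arrays and that of Abca1 lies between the groups.

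Nr1h3 encodes LXR alpha, the receptor itself. Its levels were 2.88, 2.61 and 2.91 on controls 1 to 3 and 2.48, 2.43 and 2.67 with IFN-beta. The groups overlapped through control 2 and IFN-beta 3. The log2 fold change was -0.27 ± 0.17 (SE, 3 arrays against 3, limma adjusted p = 0.284), with a 95% interval from -0.67 to 0.12, and against control 3 it was -0.39 (adjusted p = 0.319), with an interval from -0.90 to 0.13. Against controls 1 and 2 the log2 fold change was -0.21 ± 0.14 (limma adjusted p = 0.255). A second Nr1h3 probe gave 0.04 ± 0.20 against all controls.

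Ch25h makes 25-hydroxycholesterol, an oxysterol that can activate LXRs, and is widely known as a gene that interferons induce in macrophages. Here, after 60 h, no comparison found it higher. Its levels were -0.29 and 0.20 on controls 1 and 2, -1.52 on control 3, and -1.57, -1.46 and -1.08 with IFN-beta. Control 3 lay within the range of the IFN-beta arrays and 2.78-fold below the mean of the other controls. The log2 fold change was -0.83 ± 0.41 (SE, limma adjusted p = 0.189) against all controls and 0.15 ± 0.26 (adjusted p = 0.75) against control 3, with a 95% interval from -0.49 to 0.79. Against controls 1 and 2 it fell by 1.32 (adjusted p = 0.00507). The stroma markers moved with this difference among the controls, and their part in it was not tested.

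ABCA1 pumps cholesterol and phospholipid across the plasma membrane onto lipid-poor apolipoprotein A-I. Abca1 stood at 2.92 and 2.57 on controls 1 and 2, 0.72 on control 3, and -0.89, -0.75 and -0.67 with IFN-beta. Every IFN-beta array lay below every control, and control 3 lay between the groups, 4.09-fold below the mean of controls 1 and 2. With IFN-beta, Abca1 fell by 2.84 ± 0.52 on the log2 scale against all controls (7.16-fold, limma adjusted p = 0.00918). Against control 3, a single array, it fell by 1.49 (2.8-fold). Without control 3 it fell by 3.52, which is 11.5-fold (adjusted p = 4.33e-05). On control 3 the stroma sum was 2.93, beside 3.04 to 5.34 with IFN-beta, and the adipocyte sum was 19.8, beside 9.72 to 14.2. Their part in the difference of Abca1 was not tested. The Abca1 probe lies at chr4:53043944-53044003 (mm9, as the array files give it). A second Abca1 probe was above background on 2 control arrays and 0 IFN-beta arrays and was not tested.

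ABCG1 passes cholesterol on to high-density lipoprotein. Abcg1 was the only member whose IFN-beta arrays all lay above the controls, with levels of 4.51, 4.25 and 4.48 on controls 1 to 3 and 4.91, 4.73 and 4.86 with IFN-beta. The shift was small. It came to 0.42 ± 0.16 on the log2 scale (SE, limma adjusted p = 0.104), with a 95% interval from 0.05 to 0.80 before adjustment. Against control 3 it was 0.35 ± 0.20 (adjusted p = 0.346), and against controls 1 and 2 it passed at 0.46 (adjusted p = 0.0343). Abca1 and Abcg1, which both export cholesterol, thus had log2 fold changes of -2.84 and 0.42, and the difference between them was not tested.

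Abca9 encodes another transporter of subfamily A, whose substrate is not settled. Its levels were -0.14, -0.24 and 0.07 on controls 1 to 3, close together, and -5.85, -3.94 and -4.77 with IFN-beta. With IFN-beta the probe was well above background on 1 of the 3 arrays, so its fall is given as an approximate bound. With each dim array raised to its lowest signal well above background, Abca9 was 15.5-fold lower than the mean of all controls. It was 17.4-fold lower than control 3 and 14.5-fold lower than the mean of controls 1 and 2. A dim probe can carry more signal than that lowest one, so the true fall may be smaller. The fitted log2 fold change was -4.75 ± 0.43 (limma adjusted p = 0.000448) against all controls and -4.92 ± 0.67 (adjusted p = 0.0098) against control 3. Normexp background correction, which adds an offset of 50 to the signals, gave smaller values, -1.95 against all controls and -2.10 against control 3. Control 3 was not below the other controls here. The probe lies at chr11:109962136-109962195 (mm9). A second Abca9 probe was above background on no array.

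Apolipoprotein E is secreted by macrophages, takes up exported cholesterol and is the ligand through which receptors clear lipoproteins. Apoe was at 7.32, 7.12 and 6.64 on controls 1 to 3 and 3.51, 3.8 and 3.96 with IFN-beta. The groups were far apart, and control 3 was 1.49-fold below the mean of the other controls. Apoe fell by 3.26 ± 0.23 on the log2 scale (SE, 9.61-fold, limma adjusted p = 0.000146) against all controls. It fell by 2.88 ± 0.25 (7.36-fold, adjusted p = 0.00248) against control 3 and by 3.46 (11-fold, adjusted p = 6.49e-05) against controls 1 and 2. The Apoe probe lies at chr7:20281732-20281791 (mm9). Of the 18 probes tested for the 10 genes, 5 were lower and 0 higher against all controls, where 21.5% of all probes passed, 13.7% higher and 7.83% lower. A second Apoe probe fell by 4.25 ± 0.46, with levels of 6.5, 6.01 and 4.6 on controls 1 to 3 and 1.0, 1.77 and 1.6 with IFN-beta.

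Pltp encodes phospholipid transfer protein, which moves phospholipid between lipoprotein particles. It varied more among the controls than any other member: its levels were 2.75 on control 1, 1.55 on control 2 and -1.80 on control 3. With IFN-beta they were -2.22, -2.04 and -2.39. All 3 lay below control 3, but close to it. The log2 fold change was -3.06 ± 1.0 (SE, limma adjusted p = 0.0681) against all controls, -0.42 ± 0.23 (adjusted p = 0.314) against control 3 and -4.37 ± 0.35 (20.7-fold, adjusted p = 0.000382) against controls 1 and 2. Against all controls it passed with spike-in scaling (-3.16, adjusted p = 0.00182) and where only probes well above background on all arrays were tested (adjusted p = 0.0445). Control 3 itself was 15.5-fold below the mean of controls 1 and 2. The summed levels of the stroma, adipocyte, endothelial and erythroid markers were also lowest on control 3 among the controls. Single markers went the other way: Lep, Kdr, Pf4 and Klf1 were highest on control 3 among the controls.

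Lpl encodes lipoprotein lipase, which macrophages secrete and which splits the triglycerides of lipoproteins. Its brightest probe gave 7.18, 7.12 and 7.59 on controls 1 to 3 and 7.34, 7.43 and 7.48 with IFN-beta. The groups overlapped. The log2 fold change was 0.12 ± 0.18 (SE, limma adjusted p = 0.678), with a 95% interval from -0.31 to 0.54, and against control 3 it was -0.18 (adjusted p = 0.624). Against controls 1 and 2 the brightest probe was at 0.27 ± 0.11 (limma adjusted p = 0.0943). The 6 Lpl probes ran from -0.78 to 0.13 against all controls and 0 passed over all probes, the lowest limma adjusted p being 0.0622. The dimmest of them, named after a transcript rather than a RefSeq mRNA, was at -1.20 against control 3 (adjusted p = 0.0495). The direction of Lpl changed with the scaling and with the choice of probes, as given under the processing alternatives.

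Mylip, also called Idol, is an LXR-induced ubiquitin ligase that limits the uptake of lipoproteins. Its levels were 2.53, 2.48 and 2.59 on controls 1 to 3 and 1.73, 1.80 and 2.04 with IFN-beta. Controls lay close together (SD 0.06) and the groups were apart. Mylip fell by 0.68 ± 0.16 on the log2 scale (SE, limma adjusted p = 0.0259) against all controls. Against controls 1 and 2 it fell by 0.65 ± 0.14 (adjusted p = 0.0115). Against control 3 the difference was of the same size, -0.73 ± 0.22, but did not pass (adjusted p = 0.108). The call against all controls was lost in 9 of 18 alternatives. Among them were leaving out control 1 (adjusted p = 0.112), control 2 (0.0887), IFN-beta 1 (0.0746) or IFN-beta 2 (0.102).

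Lpcat3 places polyunsaturated fatty acids into membrane phospholipids. It was the member in which control 3 was highest above the other controls: 4.31 and 4.27 on controls 1 and 2, 4.96 on control 3, and 3.84, 3.82 and 3.98 with IFN-beta. Every IFN-beta array lay below every control. The log2 fold change was -0.63 ± 0.22 (SE, limma adjusted p = 0.0822) against all controls. It passed there with quantile normalization (adjusted p = 0.0128), normexp (0.0279), the deposited table (0.0193) and eBayes with trend and robust settings (0.0473). Against control 3 Lpcat3 fell by 1.08 ± 0.20 (2.12-fold, adjusted p = 0.0274), and against controls 1 and 2 by 0.41 (adjusted p = 0.0293). With IFN-beta 2 or IFN-beta 3 left out, the difference from control 3 no longer passed (adjusted p = 0.0881 and 0.0731), and a second Lpcat3 probe gave -0.77 against control 3 without passing (adjusted p = 0.185 over probes).

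**Figure D2:**
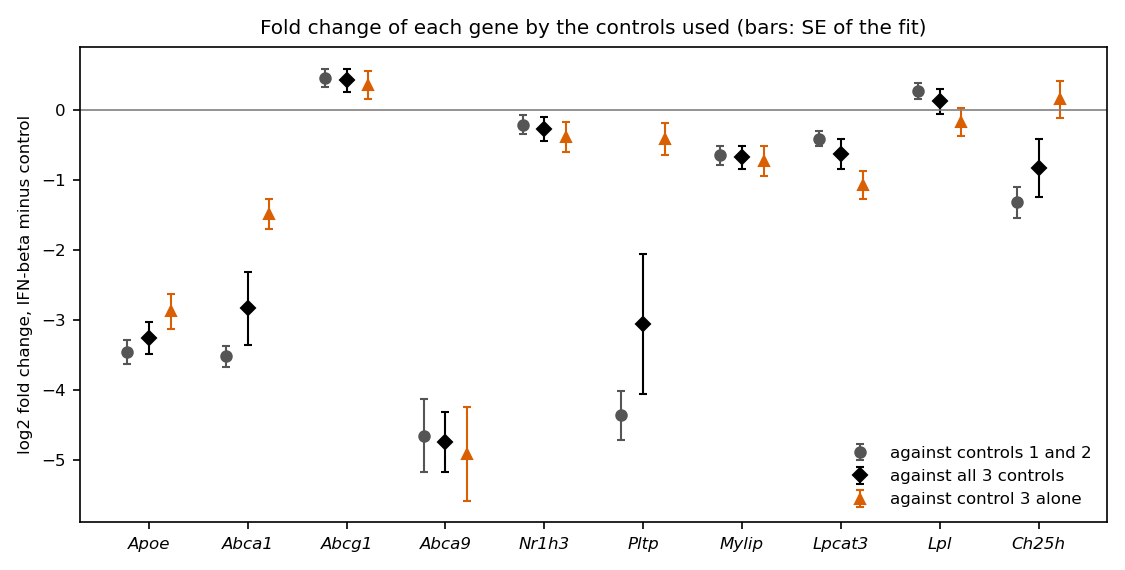
Fold change of each gene (vertical axis, log2, IFN-beta minus control; bars are standard errors of the limma fit) against controls 1 and 2, all 3 controls and control 3 alone. The 3 estimates lie close together for Apoe, Abca9 and Mylip and far apart for Pltp, from -4.37 to -0.42, and Abca1, from -3.52 to -1.49. Values of Abca9 are fitted from IFN-beta arrays at or near background.

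The arrays also lay on different slides, with all controls and IFN-beta 1 on slide 1 and IFN-beta 2 and 3 on slide 2. With slide as a block, Apoe (-3.51, limma adjusted p = 0.00463) and Abca9 (-5.74, adjusted p = 0.00231) passed. Abca1 (-2.96, adjusted p = 0.0988) and Mylip (-0.81, adjusted p = 0.115) did not. Both this fit and the one within slide 1 take the difference from IFN-beta 1 alone against the 3 controls. Within slide 1 the controls alone give the spread, IFN-beta 1 is assumed to vary like them, the values were the same and the adjusted p-values were 0.0275 for Apoe, 0.0177 for Abca9, 0.201 for Abca1 and 0.216 for Mylip.

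**Figure D3:**
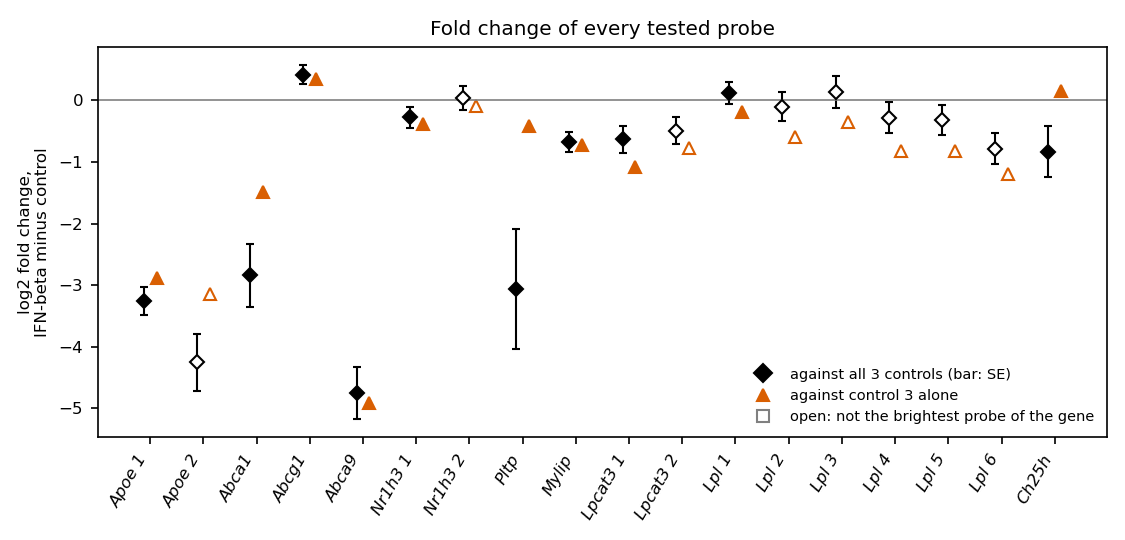
Fold change of each of the 18 tested probes (vertical axis, log2, IFN-beta minus control) against all 3 controls, with standard errors, and against control 3 alone. Filled symbols are the brightest probe of a gene. Both Apoe probes lie far below 0 against either set of controls, and the 6 Lpl probes spread on both sides of 0 against all controls.

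Of all genes tested, 11.8% were higher and 8.04% lower against all controls, and the count of each list below stands beside these shares. The partners of LXR were measured as a list of 14 receptors and co-regulators, of which 0 were higher and 2 lower (median log2 fold change -0.04). The 2 were Rxra, a retinoid X receptor that pairs with LXR, and Srebf2, the regulator of cholesterol synthesis. Rxra fell by 1.09 ± 0.15 (limma adjusted p = 0.00312) and Srebf2 by 0.75 ± 0.17 (adjusted p = 0.0195). Rxrb, another retinoid X receptor, was at 0.05 ± 0.18 (adjusted p = 0.873). Srebf1, an LXR target that drives fatty acid synthesis, was at -0.53 (adjusted p = 0.0517). Rxra was at 4.78, 4.65 and 4.74 on controls 1 to 3 and at 3.55, 3.76 and 3.59 with IFN-beta, so its controls did not split, and it passed against control 3 too (-1.11, adjusted p = 0.0272). Nr1h2, which encodes LXR beta, was at 0.03 ± 0.19.

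Among 16 other genes known as LXR targets, 14 were tested. Of these, 6 were lower and 0 higher (median -1.07), where 8.04% and 11.8% of all genes were. Against control 3 their median was -0.63, beside -0.1 over all genes. Scd1 and Scd2 encode desaturases that make monounsaturated fatty acids. Scd2 fell by 2.0 ± 0.20 (limma adjusted p = 0.000676), and fell by 2.38 against control 3. Scd1 was at 4.04, 3.62 and 0.24 on controls 1 to 3 and was not well above background on any IFN-beta array. By the same approximate bound it was 110-fold lower than the mean of all controls (limma adjusted p = 0.000823). It was 20.9-fold lower than control 3. Fasn, the fatty acid synthase, fell by 1.03 ± 0.16 (adjusted p = 0.0052). Apoc2, Mertk and Acsl3 were the other 3. Apoc2 lies in the same gene cluster as Apoe, with Apoc4 and Apoc1 between them in the RefSeq gene order, and Apoc2 fell by 1.32 ± 0.22 (adjusted p = 0.00605). Apoc1, also an LXR target, stood at 3.14, 2.0 and -3.05 on controls 1 to 3, the same order as Pltp.

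**Figure D4:**
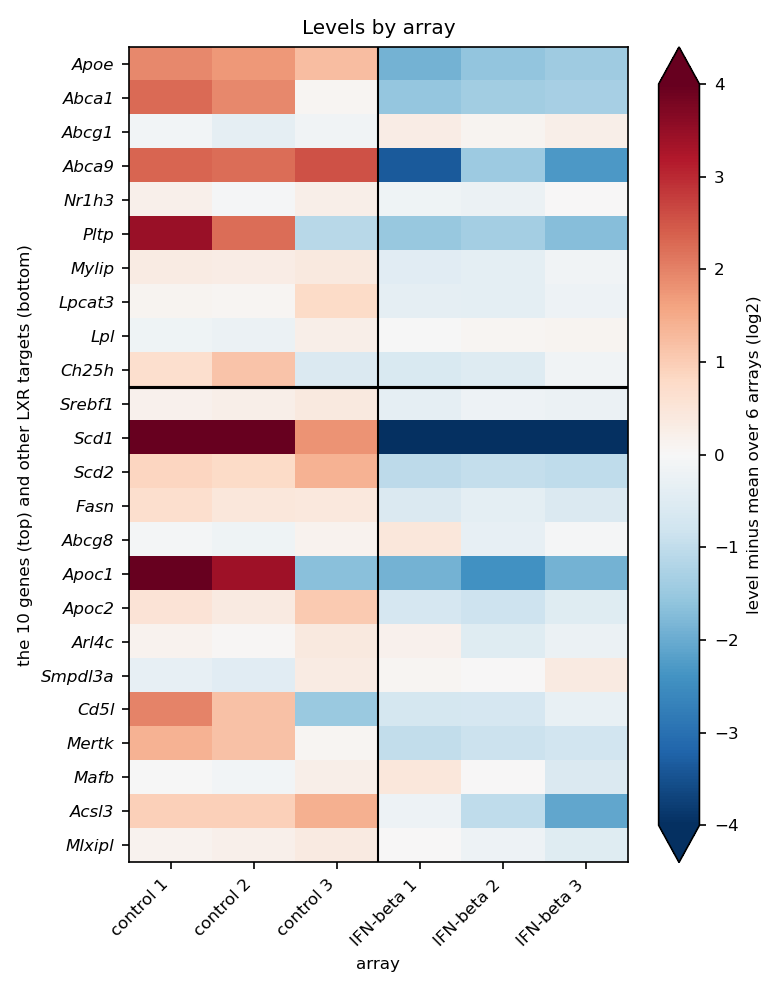
Level of the 10 genes (above the line) and of 14 other LXR targets (below it) on each array, as the difference in log2 from the mean of the gene over the 6 arrays. Colours stop at 4 log2 units in either direction, which Scd1 and Apoc1 pass. Apoe, Abca9, Scd1, Scd2 and Apoc2 are higher on all 3 controls, while Pltp, Apoc1 and Cd5l are higher on controls 1 and 2 alone.

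Cholesterol handling inside the cell was mixed, with 2 higher and 4 lower of 14 genes tested (median -0.01), where 11.8% and 8.04% of all genes were. Stard4, which carries cholesterol between membranes, fell by 1.49 ± 0.22 (limma adjusted p = 0.00415), and Cyp27a1, the mitochondrial sterol 27-hydroxylase, fell by 1.17 ± 0.19 (adjusted p = 0.0057). Scarb1 fell by 1.05 ± 0.23 (adjusted p = 0.0196), and by 1.49 against control 3. The approximate bound of Cav1 was 4.76-fold below the mean of all controls (adjusted p = 0.0266) and 1.44-fold below control 3. Stard3 rose by 0.85 ± 0.22 against all controls (adjusted p = 0.0361) and by 0.43 against control 3. Npc2, which lifts cholesterol out of the lysosome, rose by 0.93 ± 0.20 against all controls (adjusted p = 0.0179) but did not pass against control 3 (0.55, adjusted p = 0.154). Against control 3 the median of the list was -0.19, beside -0.1 over all genes. Of 8 oxysterol genes tested, 0 were higher and 2 lower against all controls, Cyp27a1 and Insig1 (median -0.46), beside the same shares of all genes. Insig1, a sterol sensor partner that holds back cholesterol synthesis, fell by 0.80 ± 0.22 (adjusted p = 0.0395), and Osbp was at -0.57 (adjusted p = 0.0564).

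Of 15 ABC transporters of subfamilies A and G, 1 was higher and 4 were lower (median -0.34), where 11.8% and 8.04% of all genes were. Abca13 was higher, and Abca1, Abca5, Abca9 and Abcg3 were lower. Against control 3 the median was -0.29, beside -0.1 over all genes, and neither Abca13 (0.60) nor Abcg3 (-1.62) passed. Abca5 lies near Abca9 in the genome, with Abca6 between them in the RefSeq gene order. Abca5 was at -2.08, -1.74 and -2.33 on controls 1 to 3 and well above background on 0 IFN-beta arrays. Its approximate bound was 4.29-fold below the mean of all controls (limma adjusted p = 0.000161) and 3.53-fold below control 3. Among lipoprotein receptors and lipolysis genes, Lrp1, a receptor for apolipoprotein E, fell by 1.18 ± 0.20 (adjusted p = 0.00666), and Lipe, the hormone-sensitive lipase, fell by 0.59 against all controls (adjusted p = 0.0395) but did not pass against control 3 (-0.44, adjusted p = 0.247). None of 11 phospholipid remodelling genes passed against all controls, of which Pla2g4a was at 0.53 and Lpcat3 at -0.63. Mboat2 was at -2.9, -2.56 and -3.82 on controls 1 to 3 and -4.07, -4.16 and -3.66 with IFN-beta, so its groups overlapped. It was well above background on 0 IFN-beta arrays. Its bound was 1.83-fold below the mean of all controls, which did not pass (limma adjusted p = 0.101), and 1.1-fold below control 3. Against control 3 the median of the 11 remodelling genes was -0.37, with Lpcat3 at -1.08.

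Markers of other cells moved with the groups. The summed level of 8 neutrophil markers was 453 to 595 on control and 820 to 999 on IFN-beta arrays, and that of 6 basophil and mast cell markers was 5.33 to 8.50 on control and 50.9 to 68.7 on IFN-beta arrays, with every marker of both lists above background everywhere. The part of these cells in the lower Apoe, Abca1, Abca9 and Mylip was not tested. The monocyte and macrophage sum of control 3, 935, was above that of the IFN-beta arrays, and that of controls 1 and 2, 647 and 625, was below it.

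**Figure D5:**
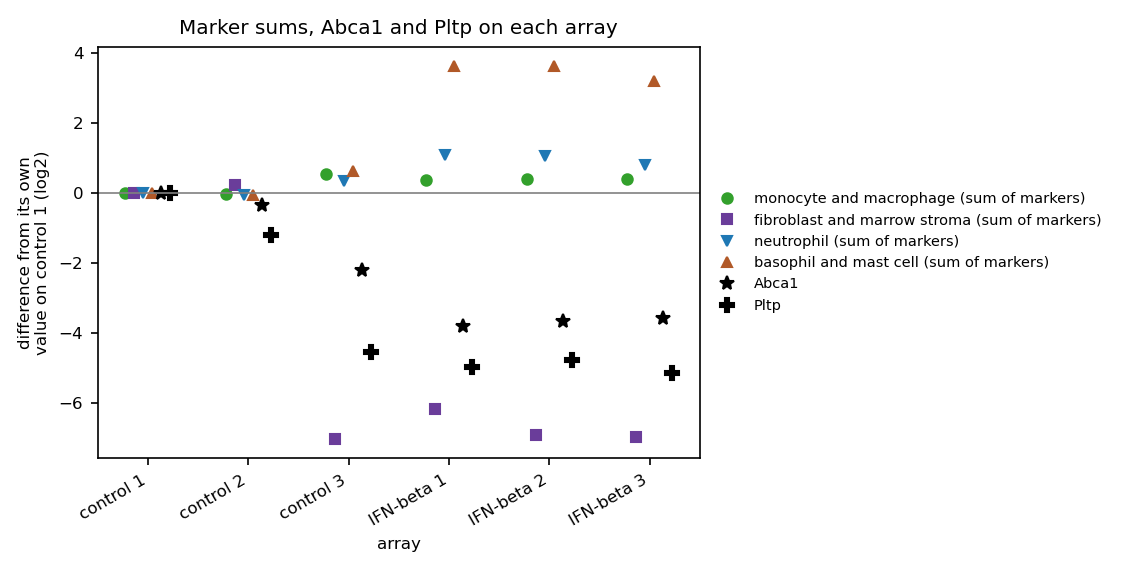
Summed level of 4 marker lists, and the levels of Abca1 and Pltp, on each array, each as the difference in log2 from its own value on control 1. The fibroblast and marrow stroma sum is low on control 3 and on all IFN-beta arrays, Pltp is low on the same 4 arrays, and the basophil and mast cell sum is high on the IFN-beta arrays.

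Over the 6 arrays, the genes whose levels followed Abca1 most closely were an unnamed long intergenic transcript (Pearson r = 0.9994), Mertk (0.9993) and Dbn1 (0.9984). Mertk, a receptor for the uptake of dying cells, was at 1.30, 1.06 and -0.01 on controls 1 to 3 and -1.09, -0.97 and -0.87 with IFN-beta, the stepped order of Abca1. Of the 19499 genes, 63 correlated with Abca1 above 0.99. Closest to Apoe were Kyat1 (0.9981), the transcript BB163080 (0.9978) and Emp2 (0.9974), and 51 genes passed 0.99. With 6 arrays in 2 groups these coefficients mostly restate the difference between groups, and they are given as a description.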

How the data were processed

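RNA of 6 cultures was hybridised to 1-colour (Cy3) Agilent arrays. The spot intensities are those that the authors took, per the file headers, from Agilent Feature Extraction 12.0.3.1, which corrected background and detrended the processed signal. The deposited value table holds log2 values whose normalization is not given in the sources used here. Its columns had medians of 4.82 to 4.83, correlated with their own arrays at 0.9963 to 0.9989, and served as an alternative.

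Of 59305 non-control spots, 135 to 174 per array marked as outliers were left out. The remaining spots were averaged within each of the 56605 probes. Values are log2 of the processed intensity minus its 75th percentile on the array. The percentile signal was 550, 528 and 305 on controls 1 to 3 and 236 to 244 with IFN-beta, and 49% to 63.9% of probes were well above background. No probe was saturated. Only 6 arrays limit the precision. The 29793 probes that some group had well above background on all its arrays were tested, and the brightest probe stood for a gene. Tests were lmFit and eBayes of limma 3.58.1 in R 4.3.3, with Benjamini-Hochberg adjustment over all genes (threshold 0.05), and were tested on simulated data. The fit against control 3 assumes that this array varies like the IFN-beta arrays. A gene not above background on every array of a group is given as a bound, in which each dim array is set to its lowest signal well above background or, where higher, to the dim signal. That lowest signal is the most lenient cutoff of the array, so the bounds are approximate. Probes were named through RefSeq accessions (GRCm38.p6, 32989 probes), otherwise by the file's symbol. Controls 1 and 2 differed by more than their replicate spots did (SD 0.11 against 0.0663 to 0.0672) and were kept as 2 samples. Spots of 1 array leave out differences between arrays, so this does not tell whether the 2 were separate preparations. IFN-beta arrays differed from each other by 0.241 to 0.308. Fits against controls 1 and 2 take part of their spread from this closer pair.

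The members and gene lists were chosen with earlier results of these data known. Named genes are the 10 members, the 3 lowest p-values of each pathway list, genes of a list that passed (some genes of the list of lipoprotein receptors and lipolysis are not reported here), and the 3 genes most like Abca1 and Apoe. Nr1h2, Rxrb, Apoc1, Cd5l and single markers were named after their values were seen. Alternatives were the scaling (quantile, normexp with an offset of 50, spike-ins, the deposited table), the filter, the choice of probes, eBayes with trend, the replicate number or slide as a block, and leaving out each array.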

Additional observations from a re-analysis of the deposited data

How the results depend on the processing

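Apoe and Abca9 fell against all controls under every alternative run for them (18 and 17), and Abca1 under all 18, losing its call in the 2 slide settings. Against control 3, Apoe and Abca1 passed in all 9, and Abca9 lost its call without IFN-beta 3 (adjusted p = 0.0707). The 3868 genes called against all controls became 1693 with no filter on dim probes, 1039 with slide as a block, 369 within slide 1 and 1994 with controls 1 and 2 averaged into 1, an alternative chosen after seeing the data. Leaving out 1 array gave 1831 to 9396, the highest without control 3. The members called became 2 with slide as a block, 2 within slide 1, and 3 to 8 with 1 array left out. Against control 3, 1864 genes became 2836 with spike-in scaling and 910 to 3390 with 1 IFN-beta array left out, and 2 to 4 members passed. The cause of these shifts was not tested. Lpl turned negative under quantile normalization (-0.14), in the deposited table (-0.08) and as the mean of its probes (-0.21), and Ch25h against control 3 under spike-in scaling (-0.15). Of the genes called, 59.5% were higher, against 69.9% with normexp and 40.6% with spike-in scaling, and 54.6% against control 3, where spike-in scaling gave 27.3% and moved the median of all genes from -0.10 to -0.41. With the replicate number as a block, 3267 genes and 4 members passed and no member's call changed. Same-numbered arrays deviated together weakly (r = 0.07, 0.02 and 0.07), so the numbers were not taken to pair them. Normexp reduced the fall of Abca9 from -4.75 to -1.95. Lpcat3 gained a call against all controls in 5 of 18 alternatives and Pltp in 3, Pltp with spike-in scaling, the stricter filter and control 3 left out. Signal near background limits the size given for Abca9.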

Other observations

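Controls 1 and 2, which both carried stroma markers, also differed from each other in some genes of lipid handling, a pattern noticed after the values were seen. Pltp was at 2.75 on control 1 and 1.55 on control 2, Apoc1 at 3.14 and 2.0, and Cd5l, a secreted macrophage protein and LXR target, at 6.47 and 5.65. Col1a1, a collagen gene of fibroblasts, was at 5.39 and 5.52 on the same arrays. Other genes went the other way, such as Ch25h at -0.29 and 0.20. The difference between 2 single arrays has no replicate and was not tested.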
